A study of Mus musculus with 2 samples.

Results

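The lysosomal cathepsins described here are the 10 genes Ctsa, Ctsb, Ctsc, Ctsd, Ctsf, Ctsh, Ctsk, Ctsl, Ctss and Ctsz, taken by name from a deposited table of 25430 distinct gene names in mouse embryonic fibroblasts (MEFs). The table lists them in capitals (CTSA, CTSB, CTSC, CTSD, CTSF, CTSH, CTSK, CTSL, CTSS and CTSZ), with 1 row each. The libraries were 1 Sptbn1 knockout library (Sptbn1-/-) and 1 wild-type library (WT). Sptbn1 encodes beta-2 spectrin, a scaffold protein of the membrane skeleton. Both were made from primary fibroblasts of E13.5 embryos (midgestation) whose parents were both heterozygous (Sptbn1+/-), grown in DMEM/F12 with 10% fetal bovine serum and replated at confluence. From each culture 1 µg of total RNA was sequenced. The number of embryos behind a culture, and how the allele was disrupted, were not stated in the sources used here. With 1 library per genotype no difference has a replicate check, so levels and ratios are given without SD or p-value of their own and describe 2 libraries. The targeted gene, listed under its older name Spnb2, was at 36.6 FPKM in knockout MEFs and 69.6 FPKM in wild-type MEFs. The library labelled Sptbn1-/- thus held 52.5% of the wild-type level, so its RNA does not by itself establish a homozygous knockout, and knockout is used below as the label gives it.

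Cathepsins are the proteases of the lysosome, made as inactive precursors, carried there on mannose 6-phosphate tags and activated by the acid pH. Most are cysteine proteases related to papain. Ctsd is an aspartic protease and Ctsa a serine carboxypeptidase. Some serve protein turnover in nearly every cell, while others are concentrated in macrophages and further cells of the myeloid lineage, where they process antigens or activate other proteases. Fibroblasts also secrete cathepsins, which can cleave the surrounding matrix.

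The genes were set out by where they are known to be used. Ctsa, Ctsb, Ctsd, Ctsf, Ctsh, Ctsl and Ctsz formed the broadly expressed class (7 genes), Ctsc and Ctss the myeloid class (2 genes), and Ctsk, the collagenase of bone-resorbing osteoclasts that fibroblasts also make, stood alone. RefSeq promoter windows (GRCm38.p6, a later build than that of the alignment, 250 bases before a start) were at hand for 8 of the 10 genes, in 9 windows. Windows of 4 genes are shown, those of Ctsc, Ctss, Ctsk and, for the broadly expressed class, Ctsd. All 4 hold a motif marked below, though not the same one. With Ctsd alone for the broadly expressed class, these windows cannot show a contrast between the classes. They lie at chr7:88277835-88278023 (plus strand, 189 bases, the part of the window before the annotated gene), chr3:95526536-95526785 (plus strand), chr3:95498960-95499209 (plus strand) and chr7:142387828-142388077 (minus strand). Each is written 5′ to 3′ on the gene's strand. Capitals mark GAGGAA, the core bound by the myeloid factor PU.1 and other ETS factors, or its reverse complement TTCCTC, and CACGTG, the E-box core bound by TFEB, a regulator of lysosomal genes, and by many other factors.
Ctsc: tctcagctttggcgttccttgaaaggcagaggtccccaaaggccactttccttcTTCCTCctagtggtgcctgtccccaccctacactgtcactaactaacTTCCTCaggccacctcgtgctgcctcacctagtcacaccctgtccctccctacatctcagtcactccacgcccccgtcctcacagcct
Ctss: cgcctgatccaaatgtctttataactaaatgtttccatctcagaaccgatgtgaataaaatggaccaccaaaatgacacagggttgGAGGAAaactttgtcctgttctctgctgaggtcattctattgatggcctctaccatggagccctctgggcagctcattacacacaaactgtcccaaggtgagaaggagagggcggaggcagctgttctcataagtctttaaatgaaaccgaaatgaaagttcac
Ctsk: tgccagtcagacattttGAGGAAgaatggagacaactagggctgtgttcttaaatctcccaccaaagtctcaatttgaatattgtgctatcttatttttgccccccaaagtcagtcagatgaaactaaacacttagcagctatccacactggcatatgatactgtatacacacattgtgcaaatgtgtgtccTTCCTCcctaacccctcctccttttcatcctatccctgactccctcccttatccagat
Ctsd: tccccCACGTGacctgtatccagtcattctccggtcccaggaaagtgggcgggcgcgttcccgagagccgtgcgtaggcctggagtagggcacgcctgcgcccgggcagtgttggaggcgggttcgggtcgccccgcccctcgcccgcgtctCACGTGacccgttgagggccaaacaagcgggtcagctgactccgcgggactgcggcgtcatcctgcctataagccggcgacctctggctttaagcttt

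GAGGAA, read on both strands, occurred in the windows of Ctsc (2 matches, 196 and 149 bases before the start), Ctsk (2 matches, 233 and 58 bases before it) and Ctss (1 match, 164 bases before it), and in none of the other 5 genes with a window. The start used for Ctsc lies inside the annotated gene, with 189 of the 250 bases before that gene. Its distances therefore also count bases that are not printed. CACGTG, which reads the same on both strands, occurred in Ctsd (2 matches, 245 and 98 bases before the start), Ctsf (79 bases before it), the second window of Ctsa (12 bases before it) and Ctsl (236 bases before it). The last 2 of these windows lie wholly inside the annotated gene, before the start of a shorter transcript. Neither motif occurred in the first window of Ctsa or in that of Ctsz. Of all 32851 promoter windows of this length, 23.3% held GAGGAA and 6.02% held CACGTG, and no window shown here held both. The GC box, GGGCGG, occurred in 5 of the 8 genes (32.7% of all windows) and the TATA box, TATAAA, in Ctss alone (12.4% of all windows), both read on either strand. A match describes letters and not binding. The bases after the start were found in an annotated transcript for 7 of the 9 windows. The first window of Ctsa and that of Ctsk were the others.

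All 10 cathepsins were measured, taken as a mean of 1 FPKM or more over both libraries. FPKM count fragments for each kilobase of transcript relative to a library's mapped total, so levels of different genes can be compared per length. The 10 genes summed to 474 FPKM in knockout MEFs and 571 FPKM in wild-type MEFs, which left 83.0% of the wild-type sum. Single genes ran from 3.04 to 147 FPKM in knockout MEFs and from 2.90 to 172 FPKM in wild-type MEFs. Ctsd, Ctsl and Ctsb led in that order in both libraries, and Ctsd and Ctsl together made up 58.3% of the cathepsin sum in knockout MEFs and 55.3% in wild-type MEFs. The next places differed: Ctsz, Ctsa and Ctsc followed in that order in knockout MEFs, and Ctsc, Ctsa and Ctsz in wild-type MEFs. Ctss and Ctsk were at places 7 and 8 in both, and Ctsh and Ctsf filled the last places in opposite order. No spread is available against which neighbours in these orders could be told apart.

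**Figure D1:**
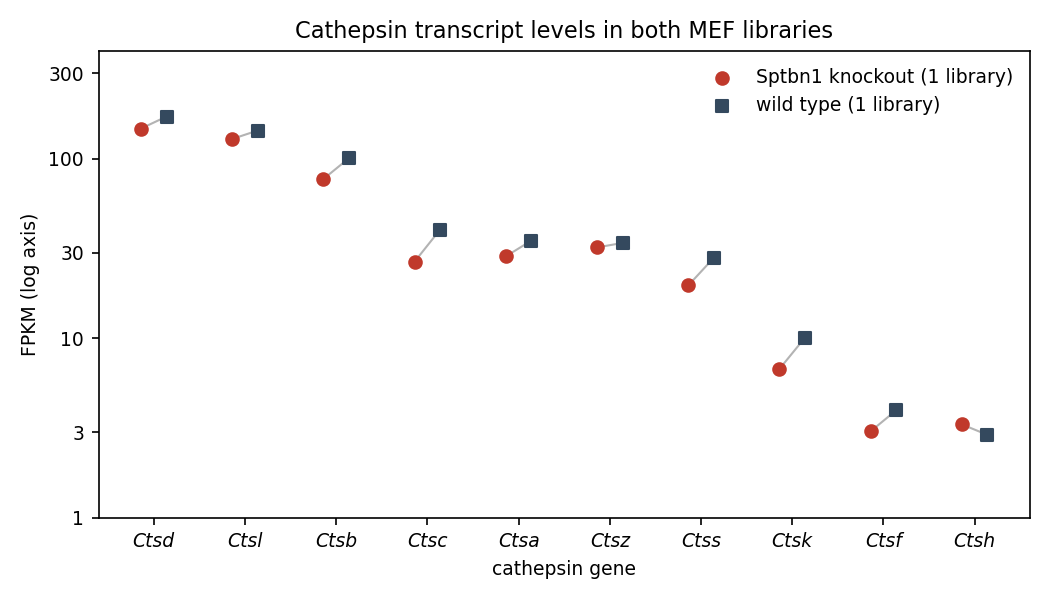
FPKM (log axis) of the 10 cathepsin genes in Sptbn1 knockout MEFs (circles, left of each pair) and wild-type MEFs (squares, right), 1 library each, ordered by the wild-type level. The knockout value is the lower in 9 of the 10 genes, and the levels span 3.04 to 147 FPKM in knockout MEFs and 2.90 to 172 FPKM in wild-type MEFs.

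The cathepsins were lower in knockout MEFs nearly throughout, by modest amounts. On the scale log2((knockout FPKM + 1)/(wild-type FPKM + 1)), 9 of 10 were below 0, beside 63.1% of the 11070 measured genes, 1 was above 0, beside 36.9%, and 9 of 10 were below the median measured gene, which stood at -0.05. Their median was -0.29 (range -0.58 to 0.15), so that the median cathepsin lay -0.24 from the median gene. Below -0.25 were 6 of the 10, beside 11.9% of measured genes. On this scale no cathepsin was at least 1.5-fold lower (1.23% of measured genes) and none at least 1.5-fold higher (1.04%). So none was 2-fold lower (0.379%) or 2-fold higher (0.361%). Without the added 1 FPKM, Ctsc was just past 1.5-fold lower (log2 ratio -0.594). The zero point depends on how the libraries are scaled. On a common FPKM sum the median gene moved to 0.34 and the cathepsin median to 0.12. There 3 of 10 cathepsins were below 0, beside 577 of the 11070 measured genes, and 8 of 10 were below the median gene.

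**Figure D2:**
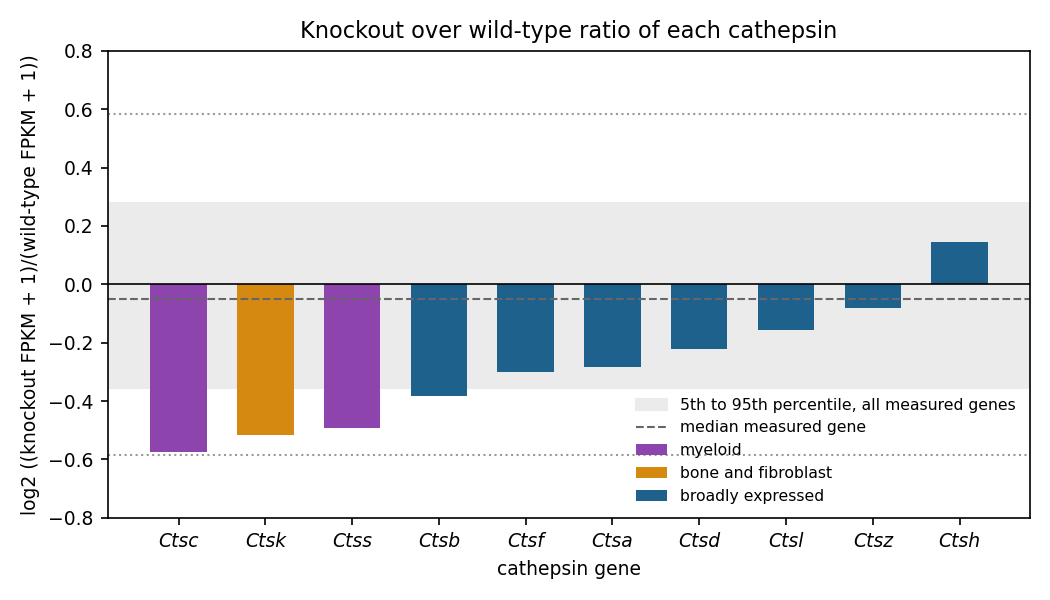
Log2 ratio of knockout over wild-type FPKM (+1 each) for each cathepsin gene, ordered from the lowest, coloured by class. The grey band spans the 5th to 95th percentile of all measured genes (-0.36 to 0.28), the dashed line is the median measured gene (-0.05), and dotted lines mark 1.5-fold. Ctsc, Ctsk, Ctss and Ctsb lie below the band and none passes 1.5-fold on this scale. On a common FPKM sum 3 cathepsins (Ctsc, Ctsk and Ctss) remain below 0, beside 577 of the 11070 measured genes.

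Among the broadly expressed genes, Ctsd and Ctsl were the most abundant and were slightly lower in knockout MEFs. Ctsd, the main aspartic protease of lysosomes, was at 147 FPKM in knockout MEFs and 172 FPKM in wild-type MEFs, a log2 ratio of -0.22. Ctsl, a cysteine endopeptidase that also trims the invariant chain of class II molecules in thymic epithelium and is the major excreted protein of mouse fibroblasts, was at 129 FPKM in knockout MEFs and 144 FPKM in wild-type MEFs (-0.16). Both ratios lay inside the band drawn in the plot of ratios, and 14.8% of measured genes had a lower ratio than Ctsd and 25.2% a lower one than Ctsl.

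Ctsb, which cuts proteins both internally and as a carboxydipeptidase, was at 77.2 FPKM in knockout MEFs and 101 FPKM in wild-type MEFs, a log2 ratio of -0.38. That was the lowest of the broadly expressed class, and 3.99% of measured genes were lower. Ctsa, the carboxypeptidase that also protects lysosomal β-galactosidase and neuraminidase, was at 28.6 FPKM in knockout MEFs and 35.0 FPKM in wild-type MEFs (-0.28). Ctsz, a carboxymonopeptidase also called cathepsin X, was nearly equal, at 32.1 FPKM in knockout MEFs and 34.0 FPKM in wild-type MEFs (-0.08).

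The remaining 2 were scarce. Ctsf, an endopeptidase that can process the invariant chain in macrophages, was at 3.04 FPKM in knockout MEFs and 3.97 FPKM in wild-type MEFs (-0.30). Ctsh, an aminopeptidase, was the one cathepsin that was higher, at 3.31 FPKM in knockout MEFs and 2.90 FPKM in wild-type MEFs (0.15). Since 1 FPKM is added to both values, ratios of genes this low are understated. Without it the log2 ratio was -0.39 for Ctsf and 0.19 for Ctsh. The annotated spans of Ctsa, Ctsb, Ctss and Ctsz overlap other genes or a pseudogene (Neurl2 and Pltp, Fdft1, Hmgb1-ps5, and Nelfcd), and whether counting used strand was not stated in the sources used here, so fragments of overlapping parts could not be told apart.

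The myeloid genes had lower ratios than the broadly expressed class. Ctsc, the dipeptidyl peptidase that activates the granule proteases of neutrophils, mast cells and cytotoxic lymphocytes, was at 26.7 FPKM in knockout MEFs and 40.4 FPKM in wild-type MEFs, a log2 ratio of -0.58, the lowest of the 10. The knockout value was 66.3% of the wild-type one, and 1.27% of measured genes had a lower ratio. Ctss, the endopeptidase that removes the invariant chain from class II molecules in antigen-presenting cells and stays active at neutral pH, was at 19.7 FPKM in knockout MEFs and 28.1 FPKM in wild-type MEFs (-0.49), or 70.1% of the wild-type value. A lower ratio was found in 2.01% of measured genes.

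Ctsk sat between them. It was at 6.75 FPKM in knockout MEFs and 10.1 FPKM in wild-type MEFs, a log2 ratio of -0.52 and 66.9% of the wild-type value, and 1.84% of measured genes were lower. Ctsk and Ctss are direct neighbours among the protein-coding genes of mouse chromosome 3. The gene on the other side of Ctsk, Arnt, had a log2 ratio of -0.12 (12.1 FPKM in knockout MEFs and 13.3 FPKM in wild-type MEFs). Beyond Ctss, Hormad1 was listed at 0 in both libraries, and the next gene, Golph3l, had a log2 ratio of 0.09. The 2 cathepsins thus had lower ratios than the nearest gene with a value on either side. The 3 flanking genes were chosen by position.

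Set side by side, the myeloid class had a median log2 ratio of -0.53 (2 of 2 genes below 0). The broadly expressed class had one of -0.22 (6 of 7 below 0, beside 63.1% of measured genes). These medians became -0.083 and 0.24 on a common FPKM sum. The myeloid genes summed to 46.4 FPKM in knockout MEFs and 68.5 FPKM in wild-type MEFs, 67.8% of the wild-type sum. The broadly expressed genes summed to 421 FPKM in knockout MEFs and 493 FPKM in wild-type MEFs, 85.4% of the wild-type sum. As shares of all cathepsin FPKM, which no scaling of a library can move, the myeloid genes held 9.80% in knockout MEFs and 12.0% in wild-type MEFs. The broadly expressed genes held 88.8% in knockout MEFs and 86.2% in wild-type MEFs.

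The same contrast was read as ratios within each library. Per 100 FPKM of Ctsl there were 20.7 FPKM of Ctsc in knockout MEFs and 28.1 in wild-type MEFs. For Ctss the figures were 15.3 in knockout MEFs and 19.5 in wild-type MEFs, and for Ctsk 5.23 in knockout MEFs and 7.02 in wild-type MEFs. Ctsb was also the lower against Ctsl, at 59.8 in knockout MEFs and 70.1 in wild-type MEFs. These quotients need no common scale between the libraries, though they still compare 1 library with 1.

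The difference between the class medians, myeloid minus broadly expressed, was -0.31 on the deposited scale. A scaling moves all genes of a library alike, so apart from the 1 FPKM added it cannot change this difference. The difference depends on which genes are called myeloid. Ctsh and Ctsz are also strongly expressed by macrophages, and with these counted as myeloid the medians became -0.29 for 4 myeloid genes and -0.28 for 5 broadly expressed ones, which left the class medians almost equal. The myeloid genes did not stand apart from every other member either, since Ctsk (-0.52) had a lower ratio than Ctss (-0.49).

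**Figure D3:**
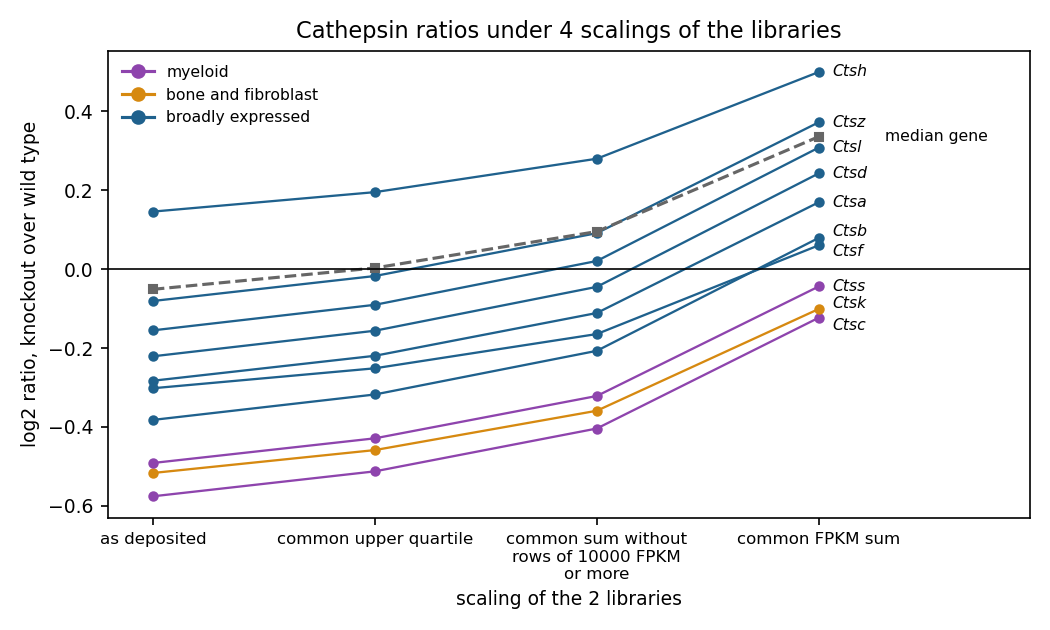
Log2 ratio of knockout over wild type for each cathepsin gene (lines, coloured by class) and for the median measured gene (dashed), as deposited and after 3 ways of scaling the libraries. On a common FPKM sum the median gene stands at 0.34 and Ctsc, Ctsk and Ctss are the cathepsins still below 0, at -0.12, -0.10 and -0.04. On that scale 577 of the 11070 measured genes are below 0.

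Markers of macrophages, which fibroblast cultures from embryos can hold, moved with these genes. All 26 marker entries found were measured and none was at 0 in either library. Single entries ran from 1.45 to 572 FPKM in knockout MEFs and from 1.37 to 979 FPKM in wild-type MEFs. Their sum was 886 FPKM in knockout MEFs and 1397 FPKM in wild-type MEFs (63.4% of the wild-type sum). Much of it was the joined lysozyme entry of Lyz1 and Lyz2, and without that entry the sums were 313 FPKM in knockout MEFs and 418 FPKM in wild-type MEFs (75.0%). The markers' median log2 ratio was -0.35 (0.06 on a common FPKM sum). Below 0 were 23 of 26, beside 63.1% of measured genes, and 5 were at least 1.5-fold lower, beside 1.23%.

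The markers did not move by one amount. The inhibitory Fc receptor gene Fcgr2b was at 2.36 FPKM in knockout MEFs and 6.09 FPKM in wild-type MEFs (-1.08), the complement gene C1qb at 13.7 FPKM in knockout MEFs and 25.4 FPKM in wild-type MEFs (-0.85), and the Fc receptor gene Fcgr1 at -0.60. The lysozyme entry was at -0.77, and Cd52 (-0.59, chosen after its values were seen) was the fifth past 1.5-fold. By contrast Ptprc, the pan-leukocyte marker CD45, was at 2.55 FPKM in knockout MEFs and 2.52 FPKM in wild-type MEFs (0.01), and Adgre1, the macrophage marker F4/80, at 13.3 FPKM in knockout MEFs and 14.6 FPKM in wild-type MEFs (-0.12), both chosen after their values were seen. Per 100 FPKM of macrophage markers without lysozyme, Ctss was at 6.29 FPKM in knockout MEFs and 6.73 FPKM in wild-type MEFs, and Ctsc at 8.54 FPKM in knockout MEFs and 9.67 FPKM in wild-type MEFs. The direction depends on leaving lysozyme out. With it the marker sum stood at 63.4% of wild type, lower than Ctss (70.1%) and Ctsc (66.3%). Against that full sum both genes were thus the higher in knockout MEFs. In a bulk culture fewer cells of a type and less RNA per cell cannot be told apart, and the part of macrophages in the cathepsin ratios was not tested.

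Fibroblast markers stood near the median gene. All 13 were measured, with a median log2 ratio of -0.08 (0.39 on a common FPKM sum) and sums of 3455 FPKM in knockout MEFs and 3594 FPKM in wild-type MEFs. Dcn, which encodes the proteoglycan decorin, was at 239 FPKM in knockout MEFs and 300.1 FPKM in wild-type MEFs (-0.33), and the growth factor receptor gene Pdgfra was at -0.24. Of 9 osteoclast markers, 4 were measured, all 4 below 0, beside 63.1% of measured genes. Their median was -0.24 (0.14 on a common FPKM sum). Acp5, the tartrate-resistant acid phosphatase of osteoclasts, was at 0.954 FPKM in knockout MEFs and 1.32 FPKM in wild-type MEFs. The other measured markers were more abundant. Among them Itgb3 was at 6.72 FPKM in knockout MEFs and 8.07 FPKM in wild-type MEFs, and Nfatc1 at 3.73 FPKM in knockout MEFs and 4.25 FPKM in wild-type MEFs. The fusion gene Ocstamp and the calcitonin receptor gene Calcr, defining markers of mature osteoclasts, were listed at 0 in both libraries. Both were chosen after their values were seen, and the presence of osteoclasts was not tested. The substrates and partners of Ctsk in matrix included Col1a1, a collagen I chain, at a log2 ratio of -0.03, and Eln, elastin, at 13.4 FPKM in knockout MEFs and 22.8 FPKM in wild-type MEFs (-0.73).

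**Figure D4:**
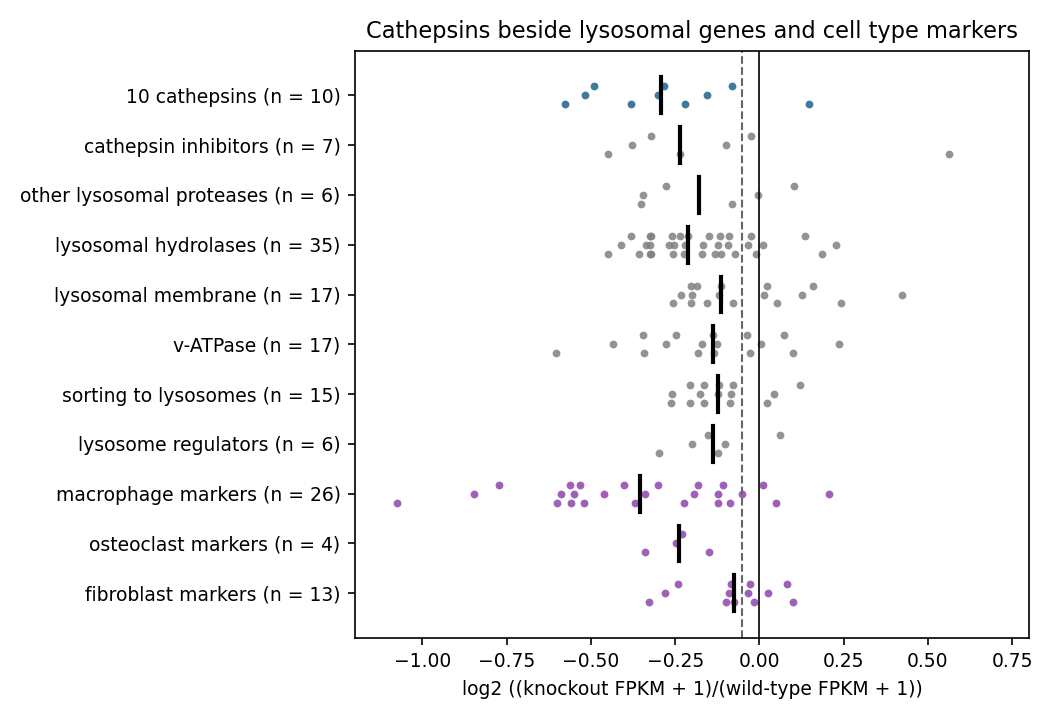
Log2 ratio of knockout over wild-type FPKM (+1 each) of every measured gene (points) in the cathepsin family, in lysosomal gene lists and in cell type marker lists, with list medians as black bars, 0 as a solid line and the median measured gene (-0.05) as a dashed line. The macrophage marker median is the lowest of those drawn (-0.35), followed by that of the cathepsins (-0.29), and the fibroblast marker median (-0.08) is nearest to the median gene. On a common FPKM sum every median drawn is above 0, with macrophage markers at 0.06 and fibroblast markers at 0.39.

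Cathepsin inhibitors had a median close to that of the broadly expressed cathepsins. Of 20 listed genes 7 were measured, with 6 below 0, beside 63.1% of measured genes. Their median was -0.24 (0.23 on a common FPKM sum). Cst3, the secreted inhibitor cystatin C, was at 106 FPKM in knockout MEFs and 133 FPKM in wild-type MEFs (-0.32). Ctla2a, which resembles a cathepsin propeptide and inhibits cysteine cathepsins, was at 59.1 FPKM in knockout MEFs and 77.1 FPKM in wild-type MEFs (-0.38), and its close relative Ctla2b at -0.45. Reads shared between those near-identical genes leave their values uncertain. Serpinb1a, an inhibitor of neutrophil serine proteases, was the exception at 2.95 FPKM in knockout MEFs and 1.67 FPKM in wild-type MEFs (0.56).

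Other lysosomal proteases and hydrolases mostly had ratios on the same side, as did 63.1% of measured genes. Of 6 measured proteases 5 were below 0 (median -0.18). The tripeptidyl peptidase gene Tpp1 was at 23.2 FPKM in knockout MEFs and 29.8 FPKM in wild-type MEFs (-0.35), the dipeptidyl peptidase gene Dpp7 was at -0.35, and Lgmn, the asparaginyl endopeptidase legumain that helps mature several cathepsins, was at -0.28. Of 35 measured glycosidases, sulfatases, lipases and their cofactors 31 were below 0, with a median of -0.21. None passed 1.5-fold (1.23% of measured genes were that much lower and 1.04% higher). Galc, which breaks down galactolipids, was at -0.38 and Man2b1, a lysosomal mannosidase, at -0.36. On a common FPKM sum these medians were 0.26 for the proteases and 0.22 for the hydrolases.

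Membrane, pump and sorting genes lay closer to the median gene. For comparison, 63.1% of measured genes were below 0 and 1.23% at least 1.5-fold lower. Lysosomal membrane genes had 10 of 17 below 0, close to that share, and a median of -0.11. Among them Cd63, a tetraspanin of late endosomes, was higher at 83.1 FPKM in knockout MEFs and 61.8 FPKM in wild-type MEFs (0.42). Laptm4a was at 0.24. Subunits of the v-ATPase, the proton pump that acidifies lysosomes, had 13 of 17 below 0 and a median of -0.14. The subunit gene Atp6v1g1 was the one past 1.5-fold (-0.60), and Atp6v1h was at -0.44. Sorting genes had 12 of 15 below 0 (median -0.12), with Gga2 and Vps26a each at -0.26. On a common FPKM sum the 3 medians were 0.32, 0.27 and 0.27.

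Genes that act on the cathepsins from above or below were mostly scarce or near the median. Of the regulators of lysosomal genes 6 were measured, with a median of -0.14 (0.25 on a common FPKM sum), and Rragc, a GTPase that ties mTORC1 and TFEB to the lysosome, was at 19.2 FPKM in knockout MEFs and 23.8 FPKM in wild-type MEFs (-0.30). Of 11 class II genes 3 were measured. Cd74, the invariant chain that Ctss and Ctsl cut, was at 1.87 FPKM in knockout MEFs and 1.69 FPKM in wild-type MEFs (0.09), and Ifi30, a lysosomal thiol reductase, at 13.6 FPKM in knockout MEFs and 17.8 FPKM in wild-type MEFs (-0.37). Of the granule proteases that Ctsc activates none was measured.

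Of 13 further cathepsin genes 1 was measured. Ctso was at 2.83 FPKM in both libraries (log2 ratio -0.00). Ctse, Ctsg and Ctsw were below that minimum, and listed at 0 in both were 9 others, among them the placental cathepsins of chromosome 13, such as Ctsj, Ctsm, Ctsq and Ctsr, the chromosome that also holds Ctsl.

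The genes nearest to Ctss in the plane of both log2(FPKM + 1) values, over 2 libraries and among genes that averaged 5 FPKM or more, were CD68 (distance 0.05), GM11428 (0.06), C1QTNF3 (0.06), GM10177 (0.07) and PLIN2 (0.08), named as in the table. CD68, a lysosomal glycoprotein of macrophages, was at 19.0 FPKM in knockout MEFs and 28.3 FPKM in wild-type MEFs. Those nearest to Ctsl were PPIC (0.03), CALU (0.04), LAMP2 (0.05), CAPNS1 (0.05) and ANXA1 (0.07). LAMP2, a major lysosomal membrane protein, was at 133 FPKM in knockout MEFs and 144 FPKM in wild-type MEFs. With 2 libraries such nearness says no more than that both values were alike.

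The authors' deposited table gave p-values below 0.05 to 4 of the 10 cathepsins, all lower in knockout MEFs, beside 3.59% of measured genes. In the authors' deposited table these were 0.000282 for Ctsc, 0.00986 for Ctss, 0.0301 for Ctsk and 0.0409 for Ctsb. For the other 6 the authors' deposited table gave values from 0.111 (Ctsa) to 0.665 (Ctsz). These p-values rest on single libraries and carry no spread between cultures. The authors' deposited table also gave 0.0256 to Col1a1, which stood at 98.2% of its wild-type level. A low value there thus need not mark a large difference.

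The wild-type column of the deposited table carries a -/- mark in its header, and every direction rests on reading it as wild type. All FPKM together came to 279927 in knockout MEFs and 386567 in wild-type MEFs. Fragment totals were not stated in the sources used here, so the depth is unknown. In low rows a single fragment counted for 1.61 times the FPKM in knockout MEFs, so the knockout library was the shallower.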

How the data were processed

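RNA was measured in 1 Sptbn1 knockout library and 1 wild-type library of mouse embryonic fibroblasts. Per the series' design text, reads from an Illumina HiSeq 2000 were checked with FastQC and Trimmomatic and aligned with TopHat2 version 2.0.10 to NCBI mouse build 37.2, Cufflinks made the FPKM with matching gene models, and Cuffdiff2 compared the libraries. Per the file headers, the authors deposited FPKM per gene for each library and a p-value per row. Their log2 fold column was not used. Cufflinks divides fragments shared between near-identical genes, so such values are estimates.

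From these values log2((knockout FPKM + 1)/(wild-type FPKM + 1)) was computed, with 1 row per name (the highest mean). Names were matched to RefSeq symbols and older names. Measured means a mean of 1 FPKM or more. No test was possible. Named genes are the 10 members, Sptbn1, up to 4 measured genes with the largest absolute ratio from each of 20 lists, every other cathepsin measured, and the 5 genes nearest to Ctss and to Ctsl, plus those said to be chosen after their values were seen. One gene that the rule names is not reported here. The members and lists were chosen with earlier results of these data known. Promoter windows are on another build than the alignment and were matched by symbol. Settings tried were the pseudocount, 4 other ways to set the zero point, the low-value filter, the row choice, the fold and the class of Ctsh, Ctsz and Ctsk. Python 3.11.15, pandas 2.3.3, numpy 2.4.6 and matplotlib 3.10.9 were used. The counting of folds was tested on simulated data without noise, which checks the code and not the precision of the counts.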

Additional observations from a re-analysis of the deposited data

How the results depend on the processing

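No paired analysis was possible because each genotype has 1 library, and for the same reason no library could be left out. On a common FPKM sum the medians were 0.12 for the 10 cathepsins, 0.24 for the broadly expressed class and -0.083 for the myeloid class. That sum was weighed on by 4 rows of 10000 FPKM or more (DNAJA1, MIR370, MIR682 and RN18S). Without them, a setting chosen after seeing the data, the medians were -0.14, -0.045 and -0.36. There 7 of 10 cathepsins were below 0, beside 3024 of the 11070 measured genes. Counting Ctsh and Ctsz as myeloid gave a myeloid median of -0.29. A pseudocount of 0.1 FPKM made 1 cathepsin, Ctsc, at least 1.5-fold lower, where the deposited scale with 1 FPKM had 0. With the common upper quartile, centring on the median gene, the 0.1 FPKM pseudocount or summed repeated rows, 9 of 10 cathepsins were below 0. In these settings each of the 10 ratios moved by less than 0.1. Of the 11070 measured genes 5452 were below 0 under the common upper quartile, and 5535 were below the median gene on the deposited scale. A pseudocount cannot change a sign, so the share there stays 63.1%. The medians moved by less than 0.1 also with no filter, with a minimum mean of 5 FPKM and with Ctsk placed in either class, and a fold of 2 left both counts at 0. Some of these outcomes were fixed in advance. All 10 genes pass the filter and have 1 row each, so lifting the filter or summing rows cannot move them. Centring shifts every gene alike, and with none past 1.5-fold none can pass 2-fold. Depth is unknown, so precision at low levels (Ctsf, Ctsh) could not be stated.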

Other observations

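Genes of neutrophils, whose granule proteases Ctsc activates, were at or near 0 with a few exceptions, which were higher in knockout MEFs. S100a8, a calcium-binding protein of neutrophils and monocytes, was at 3.35 FPKM in knockout MEFs and 1.05 FPKM in wild-type MEFs (log2 ratio 1.09), and its partner S100a9 was at 2.87 FPKM in knockout MEFs and 0.105 FPKM in wild-type MEFs (1.81). BC100530 and Stfa2l1, cystatin-family inhibitor genes below the limit for measured genes, were also higher in knockout MEFs. BC100530 was at 1.58 FPKM in knockout MEFs and 0.123 FPKM in wild-type MEFs, and Stfa2l1 was at 0.873 FPKM in knockout MEFs and listed at 0 in wild-type MEFs, both chosen after their values were seen. Other genes of the inhibitor list were not: Stfa3, the one measured stefin A relative, was at 4.84 FPKM in knockout MEFs and 4.94 FPKM in wild-type MEFs (-0.03), Stfa2 was listed at 0 in knockout MEFs and at 0.132 FPKM in wild-type MEFs, and Cst7 was at 0.0668 FPKM in knockout MEFs and 0.166 FPKM in wild-type MEFs. The neutrophil marker Ly6g was listed at 0 in both libraries, and the 7 granule protease genes found summed to 0.204 FPKM in knockout MEFs and 0.223 FPKM in wild-type MEFs. Of 9 lymphocyte markers none was measured, and their sums were 0.156 FPKM in knockout MEFs and 0.209 FPKM in wild-type MEFs.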
